A study of Saccharomyces cerevisiae with 159 samples.

Results

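The translation elongation factors of *Saccharomyces cerevisiae* were followed as a group of 9 genes, chosen by a rule that uses their names only: EFB1 (YAL003W), TEF1 (YPR080W), TEF2 (YBR118W), TEF4 (YKL081W), CAM1 (YPL048W), EFT1 (YOR133W), EFT2 (YDR385W), YEF3 (YLR249W) and HYP2 (YEL034W). They are 9 of the 7130 rows of the expression table, and each had a value in all 159 libraries. The study asked how the stress-type transcription program and the ribosome content of the cell behave when cells are held in a cell cycle arrest, enter stationary phase or receive rapamycin. RNA was sequenced in 8 experiments, and each transcript level is given as TPM, a length-corrected share of all transcripts, rescaled here to a total of 1e+06 over the nuclear open reading frames outside the ribosomal DNA. TPM is a share of the RNA in a library, so fewer cells of a kind and less RNA per cell cannot be told apart.

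The groups were as follows. Most strains, *WT* and all AID-BCY1 strains among them, are labelled psi+, GAL and can1-100 with the auxotrophic alleles his3-11,15, trp1-1, ura3, leu2-3 and ade2-1. The haploid strains are labelled MATa, apart from the *cdc20-1* strain without AID-BCY1. The *cdc20-1* strain is labelled MATalpha with can1, ade2, his3, leu2, trp1 and ura3, and the *cdc15-2* strain with ade1, omns, trp1-1, ura3 and leu2-3, and neither label lists GAL or psi+. Cells arrested in G1 carried the temperature-sensitive kinase allele cdc28-13 (with URA3), cells arrested in metaphase cdc20-1 and cells arrested in late anaphase cdc15-2. Each was sampled from 2 to 9 h after a shift to 37 °C in rich medium beside a cycling *WT* culture kept dilute at the same temperature. A further *cdc28-13* experiment compared an ADE2 auxotroph with a prototroph that also carried a reporter (leu2::4xSTRE-GFP:LEU2), both released from a pheromone block. Alpha factor (5 µg/mL by the labels), the mating pheromone that arrests **a** cells in G1, or its solvent DMSO was given to bar1::HisG cells (with his3 and ade2, other markers as in *WT*) for up to 9 h at 30 °C. Stationary phase (2 to 24 h of growth) and rapamycin (0 to 5 h), an inhibitor of the growth-controlling kinase complex TORC1, were each followed at 30 °C in haploid *WT* cells and in cells labelled MATa/alpha diploid. The labels give 5 nM rapamycin for both, and the study's supplement a lower dose for the diploid. In the last experiment *WT*, *cdc28-13*, *cdc20-1* and *cdc15-2* cells were compared with strains in which BCY1, the inhibitory subunit of protein kinase A, was fused to an auxin-inducible degron behind the RFA1 promoter (AID-BCY1). Those strains also expressed the auxin receptor osTIR from the TEF1 promoter, a regulatory region of 1 of the genes followed here. By their labels they carry KanMX with the degron and LEU2 with osTIR (leu2::pTEF1-osTIR::LEU2), which their parents do not. All cultures of that experiment received auxin from 2 h on, at 500 µM.

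Elongation factors drive the ribosome along the messenger RNA. EF-1A, made from TEF1 and TEF2, brings aminoacyl-tRNA to the ribosome as a GTP complex, and the exchange complex EF-1B, with its catalytic subunit Efb1 and the related gamma subunits Tef4 and Cam1, recharges it with GTP. EF-2, made from EFT1 and EFT2, moves the ribosome by one codon, the fungal ATPase eEF3, made from YEF3, helps the spent tRNA to leave, and eIF5A, made from HYP2, relieves stalls during peptide bond formation. In growing yeast these are among the most abundant transcripts of the cell, and their synthesis is tied to that of ribosomes. HEF3, a second eEF3 gene that is little used in growing cells, and ANB1, a second eIF5A gene used when oxygen is low, are given as relatives.

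The gene pairs limit what a sequencing read can tell. The coding sequences of TEF1 (chrXVI:700594-701970) and TEF2 (chrII:477671-479047) differ at 2 of 1377 bases and share an identical run of 761 bases. Those of EFT1 (chrXV:575098-577626) and EFT2 (chrIV:1243230-1245758) differ at 4 of 2529 bases, with an identical run of 1262. The windows below show 1 of these differences in each pair, because a read that does not cross such a base, or the gene's untranslated ends, fits both copies. Sequences were read from the R64 (sacCer3) reference genome on the coding strand, with the differing base in capitals.
TEF1 at chrXVI:701326-701355: agattgccattgcaagatgtttacaagatT
TEF2 at chrII:478403-478432: agattgccattgcaagatgtttacaagatC
EFT1 at chrXV:575515-575544: gaaactgttttgagacaagctttgggtgaA
EFT2 at chrIV:1243647-1243676: gaaactgttttgagacaagctttgggtgaG
The estimated split between TEF1 and TEF2 and between EFT1 and EFT2 is therefore uncertain, and the sums are given beside the single genes in the main tested comparisons. EFT1 and EFT2 were listed at the same value in 2 of the 3 *cdc28-13* libraries of 8 h. YEF3 (chrXII:636780-639914) and HEF3 shared 74.5% of their aligned coding bases with no identical run longer than 41, and TEF4 (chrXI:282891-284455) and CAM1 (chrXVI:464401-465648) shared 73.0%, so these were read as separate genes. EFB1 (chrI:142174-143160) and TEF4 each hold 1 intron, with the small nucleolar RNAs SNR18 and SNR38 inside it.

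The stretches upstream of the genes were searched for the letters of known regulatory elements on both strands, because most of the genes moved together in the comparisons that follow. Within 300 bases of the start codon the RRPE motif AAATTTT, an element of ribosome biogenesis genes, was present at 7 of 9 genes (all except TEF2 and CAM1) and at 24.4% of 6001 upstream windows. The stress element AGGGG was present at 0 of 9 and at 22.2% of windows, the PAC motif GATGAG at YEF3 and at 19.1%, and the Rap1 core ACCCANACA and its short form CCCATAC at 0 of 9 (1.68 and 1.95%). Within 600 bases the counts were different: AAATTTT was present at 8 of 9 (37.6% of the wider windows), AGGGG at 6 of 9 (39.7%), ACCCANACA at TEF2 and TEF4 (3.53%) and CCCATAC at HYP2 (4.82%). GATGAG was present at TEF4 and YEF3 within 600 bases, and its share of the wider windows was not computed. Examples are shown with the matched letters in capitals, counting overlapping matches on both strands as one; these are matches of letters and not mapped binding sites.
TEF1, RRPE, chrXVI:700406-700435: tctttttcttgAAAATTTTtttttttgatt
TEF4, RRPE, chrXI:282741-282770: aaattgaaagaAAAATTTTtttcatcaaca
YEF3, RRPE, chrXII:636580-636609: ttgcgttggtgAAAATTTTttcgcttcctc
EFB1, RRPE, chrI:142006-142035: cctttgaagaaAAAATTTTtcacattgtcg
TEF2, Rap1 core, chrII:477226-477255: ttcatgttgcACCCACACAtttatacaccc
TEF4, Rap1 core on the opposite strand, chrXI:282492-282521: ttcaatttggTGTCTGGGTgaaacttttta

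The order of the levels was much the same in the 26 libraries of the *cdc28-13* experiment and the 47 of the Bcy1 experiment. TEF2 (median 8974 TPM in the first and 6420 in the second, ranks 5 and 7 among all reading frames) and TEF1 (7443 and 6217) were highest. YEF3 (2767 and 1772), EFB1 (1954 and 1673), EFT2 (1728 and 1347) and EFT1 (1495 and 841) lay between, TEF4 (857 and 969) was below EFT1 in the first and above it in the second, and CAM1 (305 and 401) was lowest. The relatives were rare, with HEF3 at a median of 7.58 and 11.6 TPM and ANB1 at 15.7 and 15.3. Neighbours in this order (TEF1 and TEF2, EFB1 and EFT2) overlapped in their ranges across libraries, and the spread includes the conditions of each experiment.

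HYP2 (chrV:85676-86149) could not be read from its own row in 5 of the 8 experiments. A second reading frame, YEL034C-A, is listed in the table at the same locus, and the 2 rows took turns in holding the signal. HYP2 held 98.8 to 99.9% of the sum of both rows in the alpha factor, Bcy1 and prototroph libraries. It held a median of 18.5% in the *cdc28-13* experiment (range 0 to 81.3%), 13.0% in the *cdc20-1*, 11.6% in the *cdc15-2*, 1.17% in the rapamycin and 3.57% in the stationary phase experiment. The HYP2 row was listed at 0 in 11 of 24 rapamycin, 7 of 23 stationary phase, 4 of 26 *cdc28-13* and 2 of 10 *cdc15-2* libraries. HYP2 is therefore given below as the sum of both rows, an alternative chosen after seeing the data, while the counts of called members keep the HYP2 row itself.

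**Figure D1:**
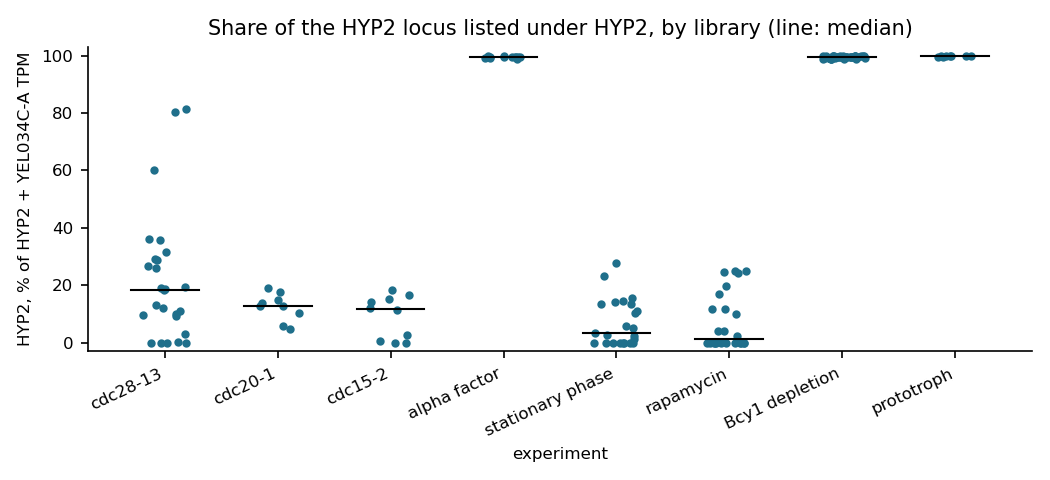
Share of the summed TPM of HYP2 and YEL034C-A that was listed under HYP2 (percent, y axis) in each library (points) of the 8 experiments (x axis), with a line at each median. The alpha factor, Bcy1 and prototroph libraries sit at 98.8% or more, and the medians of the other 5 experiments lie between 1.17 and 18.5%.

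Some checks of whole libraries bear on the comparisons. By the study's methods total RNA was sequenced in the *cdc28-13*, stationary phase and rapamycin experiments and enriched messenger RNA in the others, while the labels give total RNA for the alpha factor and Bcy1 libraries too. Ribosomal RNA took 75.0 to 84.1% of TPM in the *cdc28-13*, stationary phase and rapamycin libraries and 0.322 to 33.4% elsewhere, and the deposited totals of the *cdc28-13* libraries were 625303 to 813264, below the usual TPM total, so all values were rescaled. Libraries labelled diploid expressed the **a**-specific genes STE2 (median log2 7.29 in stationary phase and 8.38 with rapamycin) and BAR1 (6.57 and 7.57), which a MATa/alpha diploid represses, and they are called diploid-labelled here. In the Bcy1 experiment the *WT*, *WT* AID-BCY1 and *cdc15-2* AID-BCY1 libraries are labelled MATa and expressed the alpha-specific gene STE3 (median log2 7.68, 7.59 and 7.64), so AID-BCY1 and its parent differed in mating type in *cdc15-2*, and also in *cdc20-1*, where STE2 was the higher gene in AID-BCY1 (8.55) and STE3 in the parent (7.54). The labels also give these 2 parents other marker alleles than their AID-BCY1 strains. In all 4 backgrounds the AID-BCY1 strains carry LEU2 and KanMX by label, and their parents do not. BCY1 transcript itself was lower in AID-BCY1 than in its parent in all 4 backgrounds (6.70 to 7.37 against 7.77 to 8.57), and the degron acts on the protein. The labels do not say that replicates came from separate cultures, so p-values measure the spread between these libraries, which may be technical. The study describes its cell volume and ribosome measurements in stationary phase and rapamycin as performed once, so the replicate libraries there may share a culture. Adjusted p-values are from limma, fitted over all rows of an experiment with a mean log2 of at least 1, with Benjamini-Hochberg adjustment and a threshold of 0.05.

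In cells held in G1 by *cdc28-13*, the elongation factor transcripts fell by 0.86 to 2.94 on the log2 scale by 8 h, TEF2 and CAM1 least and EFT2 and HYP2 with YEL034C-A most, and HEF3 rose. Together with YEL034C-A the 9 genes made up 2.94 to 3.25% of reading frame TPM in *WT* and 1.07 to 1.16% in *cdc28-13* at 8 h. At 2 h they made up 3.14 to 3.22% in *WT* and 2.90 to 2.92% in *cdc28-13*. By limma 0 of 9 members were called at 2 h (1.15% of all rows tested were called in either direction), and 0 had an unadjusted p under 0.05. At 8 h 8 of 9 members were called lower, against 21.7% of all rows, and at 9 h 8 of 9, against 19.1%. The values of the 3 *cdc28-13* libraries lay below all 3 of *WT* at 8 h for 9 of 9 members, the HYP2 row included, as they did for 24.7% of all rows.

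TEF1 stood at 7288, 8198 and 7879 TPM in the *WT* libraries of 8 h and at 2364, 2107 and 3493 in *cdc28-13*. Its twin TEF2 stood at 9173, 10227 and 9835 and at 6146, 5672 and 4463. Both groups of libraries were apart for both genes, with a wider gap for TEF1. TEF1 fell by 1.59 ± 0.15 on the log2 scale (SE, n = 3 against 3, limma adjusted p = 8.1e-08) and TEF2 by 0.86 ± 0.11 (limma adjusted p = 2.1e-06). Their sum, which does not depend on how shared reads were split, fell by 1.12 at 8 h and 0.98 at 9 h.

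In the exchange complex, EFB1, the catalytic subunit, was at 2030.5, 2160.4 and 2060.3 TPM in *WT* and at 444, 419 and 505 in *cdc28-13* at 8 h. TEF4 was at 757, 1052 and 995 in *WT* and at 205, 244 and 129 in *cdc28-13*. CAM1, which codes for the other gamma subunit, was at 283, 399 and 349 and at 127, 161 and 205. The decrease was thus smaller for CAM1 than for its paralog. EFB1 fell by 2.19 ± 0.15 (limma adjusted p = 4.1e-10), TEF4 by 2.31 ± 0.21 (3e-08) and CAM1 by 1.07 ± 0.18 (8.9e-05). Within a library the CAM1 level lay 1.44 log2 units below TEF4 in *WT* and 0.21 below it in *cdc28-13* on average at 8 h. In the 1 *cdc28-13* library of 4 h and of 6 h, TEF4 was already 1.06 and 1.68 below the mean of *WT*, while CAM1 differed by 0.01 and -0.11, with no test. In these libraries 1 and 3 of 9 members were at least 2-fold lower (18.6 and 21% of all rows), TEF4 at both times and EFB1 and the HYP2 row at 6 h, and the HYP2 row was 2-fold higher at 4 h. The number past 2-fold in either direction depended on the scaling: it was 2 at 4 h and 3 at 6 h as scaled here, 5 and 8 with all reading frames in the total or on the deposited scale, and 4 and 4 after centring. The share of all rows past 2-fold in either direction was not computed.

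Of the later steps of elongation, EF-2 and eIF5A transcripts fell most and eEF3 less. EFT1 and EFT2 together were at 3215, 3581 and 3464 TPM in *WT* and at 613, 797 and 609 in *cdc28-13* at 8 h, and their sum fell by 2.35 ± 0.09 (limma adjusted p = 1.9e-13). YEF3 was at 2835, 2940.2 and 3088 in *WT* and at 1119.6, 935 and 969 in *cdc28-13*, and fell by 1.55 ± 0.07 (3.2e-12). The 3 libraries of each group were close together for both, and the errors rest on a spread estimated over all groups of the experiment. HYP2 with YEL034C-A was at 3775, 3975 and 3869 in *WT* and at 567, 375 and 605, and the sum fell by 2.94 ± 0.15 (1e-11). The HYP2 row alone had an error of 2.81 and was not called (limma adjusted p = 0.29). HEF3, the second eEF3 gene, moved the other way, from 2.13, 3.28 and 7.29 TPM in *WT* to 61.0, 84.4 and 125, a rise of 4.18 ± 0.84 on the log2(TPM + 1) scale (0.00053). At 125 TPM at most it remained far below YEF3.

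**Figure D2:**
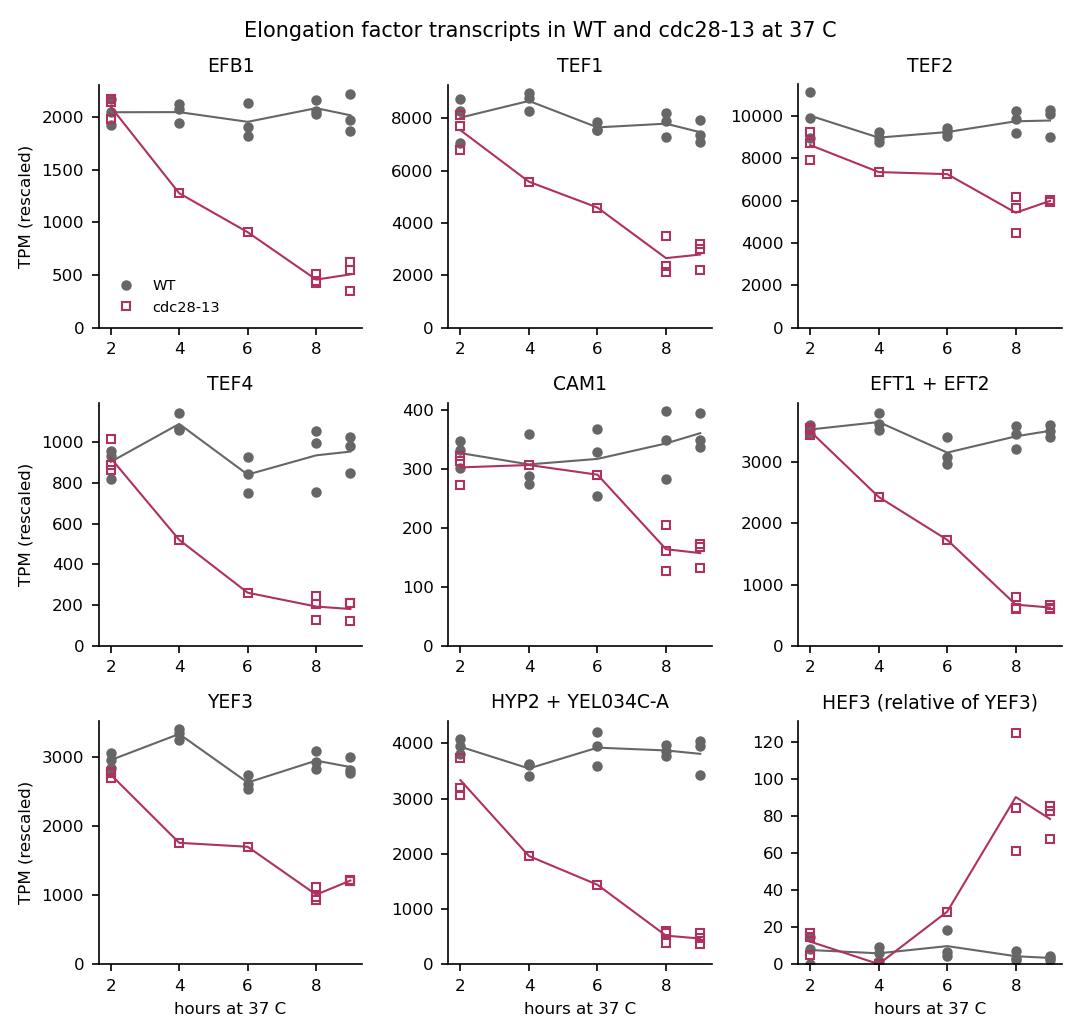
TPM (y axis, rescaled over nuclear reading frames) against hours at 37 °C (x axis) for EFB1, TEF1, TEF2, TEF4, CAM1, EFT1 with EFT2, YEF3, HYP2 with YEL034C-A and HEF3, with each library as a point, *WT* as filled circles, *cdc28-13* as open squares and lines through the group means. The *WT* points stay level, the *cdc28-13* points of the first 8 panels drop, and those of HEF3 reach 61.0 to 125 at 8 h.

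The values at 9 h were close to those at 8 h. TEF4 fell by 2.43, EFT2 by 2.66, YEF3 by 1.24 and TEF2 by 0.71 (limma adjusted p between 7.7e-11 and 2.4e-05), in libraries other than those of 8 h. Both times may come from the same cultures, and their errors rest on the same spread over all groups of the experiment. In cycling *WT* cells 9 h at 37 °C against 2 h gave 0 of 9 members called by limma, where 0.176% of all rows were called, with 0 of 9 at an unadjusted p under 0.05. The largest of these differences over the 8 members other than HYP2 was 0.19 in size. The other parts of the translation machinery were lower as well at 8 h in *cdc28-13*: 127 of 137 cytosolic ribosomal protein rows (median log2 difference -2.85), 23 of 27 initiation factors (-1.35), 22 of 22 cytosolic aminoacyl-tRNA synthetases (-1.76) and 4 of 6 termination and recycling factors (-1.41), beside -2.19 for the 9 members and -0.20 for all rows. Of 16 genes whose products modify elongation factors (diphthamide, hypusine and methylation enzymes) 8 were called lower, LIA1, the hydroxylase that completes hypusine on eIF5A, among them (-4.74). The 8 mitochondrial translation factors had 0 called by limma, with a median of -0.33, and 1 initiation factor, TIF4632, rose (1.08).

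Entry into stationary phase showed the largest exchange between 2 genes of 1 factor. YEF3 was at 3488 and 3823 TPM in the haploid libraries of 2 h, at 3205 and 3397 at 8 h, at 1096 and 1073 at 10 h and at 225 and 205 at 24 h. HEF3 was at 0 and 3.13 at 2 h, at 15.1 and 8.44 at 8 h, at 8.89 and 11.0 at 10 h and at 772 and 830.1 at 24 h. HEF3 thus exceeded YEF3 in both haploid libraries of 24 h. In diploid-labelled cells YEF3 was at 3715 and 3827 at 2 h, at 130.0 and 122 at 10 h and at 437 and 498 at 24 h. HEF3 in those cells was at 3.34 and 0, at 57.9 and 60.5 and at 609 and 639.7. HEF3 was again the higher of the pair at 24 h, by a smaller margin.

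YEF3 fell by 4.08 ± 0.12 on the log2 scale between 2 and 24 h in haploid cells (n = 2 against 2, limma adjusted p = 5.9e-11) and by 3.01 ± 0.12 in diploid-labelled cells (1.2e-09). HEF3 rose by 8.62 ± 1.25 (0.00015) and by 8.23 ± 1.25 (0.00025) on the log2(TPM + 1) scale, where the low values at 2 h make the size depend on the added 1. Within a library HEF3 went from 10.81 log2 units below YEF3 at 2 h to 1.89 above it at 24 h in haploid cells, and from 10.82 below to 0.42 above in diploid-labelled cells. An exact permutation test of 2 against 2 libraries cannot go below p = 0.333, so these ratios are descriptions. The decrease of YEF3 to 24 h was smaller in diploid-labelled than in haploid cells, with a difference of 1.07 ± 0.17 (limma adjusted p = 0.013). It was the only member called in that contrast, where 0.279% of all rows were called, and it was not called with only the groups compared in the fit. YEF3 had its lowest level at 10 h in diploid-labelled cells and at 24 h in haploid cells.

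**Figure D3:**
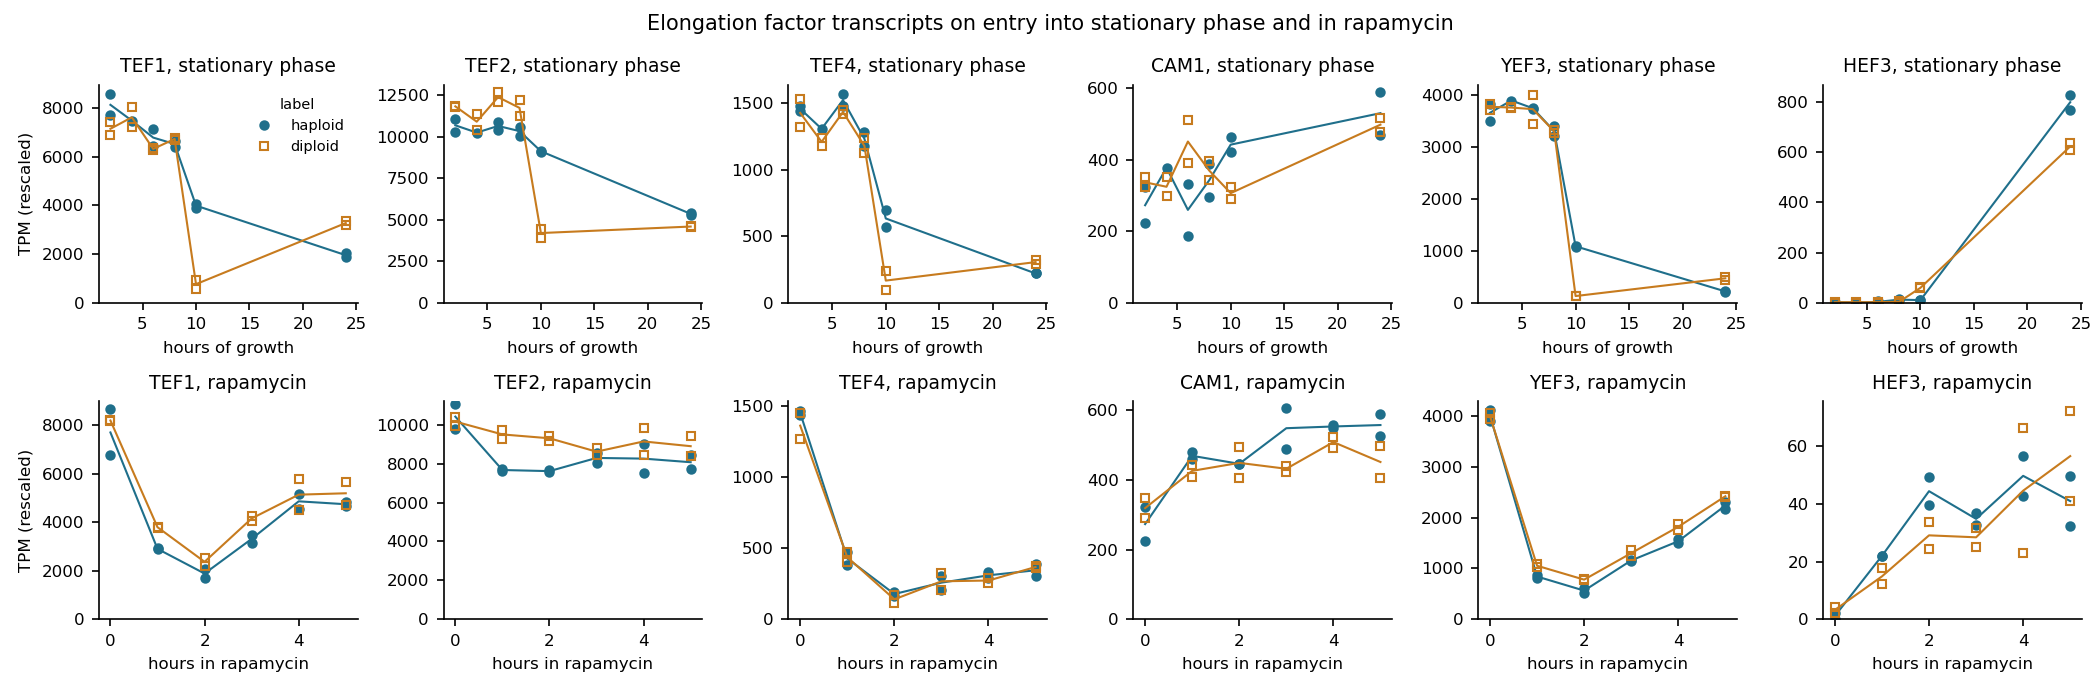
TPM (y axis) of TEF1, TEF2, TEF4, CAM1, YEF3 and HEF3 in each library against hours of growth into stationary phase (upper row) and hours in rapamycin (lower row), with haploid libraries as circles, diploid-labelled libraries as squares and lines through the group means. In the upper row HEF3 reaches 609 to 830.1 at 24 h, where YEF3 is at 205 to 498, and in the lower row YEF3 drops by 2 h and is partly restored at 5 h.

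In haploid cells 5 of 9 members were lower at 10 h (4.8% of all rows were called lower), and 7 of 9 were lower and CAM1 higher at 24 h (10.3% lower and 12.4% higher). In diploid-labelled cells 7 of 9 were lower at 10 h (15.1%) and 7 of 9 at 24 h (9.5%). Both times share the 2 h libraries as their control. With only the groups compared in the fit the haploid counts were 3 at 10 h and 4 at 24 h, and the count at 10 h was 3 without the haploid library 2 of 2 h or library 1 of 10 h. The steepest changes other than that of YEF3 were in diploid-labelled cells at 10 h, where EFB1 went from 2059 and 2514 TPM to 208 and 170.1, a fall of 3.59 ± 0.18 (limma adjusted p = 2.9e-09). TEF1 went from 6893 and 7418 to 942 and 577 in the same libraries, a fall of 3.28 ± 0.17 (4.7e-09), while TEF1 with TEF2 fell by 1.94 and EFT1 with EFT2 by 2.64. At 24 h both stood higher than at 10 h, EFB1 at 712 and 961 and TEF1 at 3361 and 3189. In haploid cells the order of times was the reverse, with EFB1 at 1607 and 1363 at 10 h and 694 and 648 at 24 h.

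TEF2 had the highest level of the 9 genes at each of these times. It was at 11079 and 10312 TPM at 2 h, 9166 and 9095 at 10 h and 5396 and 5312 at 24 h in haploid cells, a fall of 1.00 ± 0.10 at 24 h (limma adjusted p = 7.7e-06) beside 2.06 ± 0.17 for TEF1 (7.5e-07). TEF1 with TEF2 fell by 1.37 and EFT1 with EFT2 by 1.77 at 24 h. HYP2 with YEL034C-A went from 5431 and 4665 to 2865 and 2618, a fall of 0.88, which is among the smallest of the group.

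CAM1 was the member that did not follow the others. It was at 222 and 323 TPM at 2 h, 422 and 462 at 10 h and 589.7 and 469.6 at 24 h in haploid cells, while TEF4 went from 1476 and 1438 to 572 and 693 and then to 219 and 219. The order of the 2 gamma subunit genes was turned over, with TEF4 above CAM1 in both libraries at 2 h and below it in both at 24 h. CAM1 was 0.97 ± 0.27 higher at 24 h (limma adjusted p = 0.016), but the median of all rows was 0.32 higher too, and with each library centred on its median the difference was 0.54 and was not called (limma adjusted p = 0.17). TEF4 fell by 2.73 ± 0.29 (7.8e-06). In diploid-labelled cells CAM1 was at 322 and 350.4 at 2 h and at 478 and 517 at 24 h, a difference of 0.56 (0.16), and TEF4 fell by 2.22 ± 0.29 (6e-05). Ribosomal protein rows were lower in 110 and 111 of 137 at 24 h in the 2 kinds of cell, and 21 of 22 synthetase rows in each.

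Most of the group was lower after 1 h of rapamycin, and several members had partly returned by 5 h. No culture without rapamycin was sampled at the later times, so rapamycin and time in culture cannot be told apart. YEF3 was at 4119.7 and 3909 TPM before rapamycin in haploid cells, at 869.9 and 808 after 1 h, at 508 and 615 after 2 h, and at 2306 and 2172 after 5 h. It was at 3951 and 4055, 1022 and 1081, 785 and 771, and 2408 and 2436 at these times in diploid-labelled cells. The values of the replicates did not overlap between these times (share of all rows not computed). YEF3 fell by 2.84 ± 0.09 at 2 h (limma adjusted p = 2.9e-12) and rose by 2.00 ± 0.09 from 2 to 5 h (1.1e-08) in haploid cells, and fell by 2.36 (3e-11) and rose by 1.64 (6.4e-08) in diploid-labelled cells. HEF3 stayed above its starting level as YEF3 came back: it was at 0 and 2.20 before, 39.5 and 49.4 at 2 h and 49.5 and 32.4 at 5 h in haploid cells.

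TEF4 was at 1434 and 1467 TPM before rapamycin in haploid cells, at 159.9 and 193 at 2 h and at 386 and 301 at 5 h. TEF1 went from 6762 and 8663 to 1681 and 2083 and back to 4672 and 4819.6. TEF2 went from 11058 and 9800.4 to 7558 and 7685 and was at 7727 and 8434 at 5 h. As listed, the drop and the return were larger for TEF1 than for TEF2, which rests on the split of shared reads. Their sum fell by 0.93 at 2 h and rose by 0.43 from 2 to 5 h in haploid cells, and fell by 0.65 and rose by 0.27 in diploid-labelled cells. At 2 h TEF4 fell by 3.04 ± 0.25 (limma adjusted p = 1.6e-07), TEF1 by 2.03 ± 0.14 (2.7e-08) and TEF2 by 0.45 ± 0.10 (0.0018) in haploid cells. In diploid-labelled cells TEF4 fell by 3.31 (7.5e-08) and TEF1 by 1.80 (1.5e-07), and TEF2 differed by -0.13 (0.36). All rows shifted upward in these libraries, by a median of 0.73 and 0.70 at 2 h, and with each library centred on its median TEF2 was called lower at 1, 2 and 5 h in both kinds of cell (-0.52 to -1.15).

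EFT1 with EFT2 was at 4699 and 4395 TPM before rapamycin, at 727 and 819.7 at 2 h and at 1627 and 1599 at 5 h in haploid cells. The sum fell by 2.56 ± 0.09 at 2 h (limma adjusted p = 3.1e-12) and rose by 1.06 from 2 to 5 h (2e-06), although neither gene alone was called between 2 and 5 h. EFB1 went from 2855 and 2831 to 523 and 595 and then to 961 and 1393, a fall of 2.35 ± 0.22 at 2 h (5.9e-07). HYP2 with YEL034C-A showed no return: it was at 4906 and 5302, then at 3262 and 3025 at 2 h and 2098 and 2409 at 5 h. Its sum fell by a further 0.48 between 2 and 5 h in haploid cells (0.014), and the difference in diploid-labelled cells was -0.32 (0.098).

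CAM1 was at 223 and 323 TPM before rapamycin in haploid cells, at 446 and 447 at 2 h and at 526 and 589.9 at 5 h. All later libraries lay above both early ones (share of all rows not computed). It was higher by 0.73 ± 0.18 at 2 h (limma adjusted p = 0.004) and by 1.05 ± 0.18 at 5 h (0.0003), but once each library was centred on its median the differences were 0.04 and 0.30 and neither was called. In diploid-labelled cells it was higher by 0.49 ± 0.18 at 2 h (0.043), and by -0.17 after centring, which turns the sign and is not called. At 2 h the shift of CAM1 was thus close to the median of all rows, while TEF4 lay far below it. Within a haploid library CAM1 lay 2.43 log2 units below TEF4 before rapamycin and 1.34 above it at 2 h.

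In haploid cells 6, 7 and 6 of 9 members were called lower at 1, 2 and 5 h (7.72, 8.11 and 3.85% of all rows), and CAM1 higher each time (23.8, 26.8 and 22.5%). In diploid-labelled cells 5, 6 and 6 were lower (7.56, 7.3 and 4.06%), and CAM1 was higher at 2 h (25.1%). The 3 times share the libraries taken before rapamycin. From 2 to 5 h 4 of 9 rose in each kind of cell (3.61 and 3.64%), TEF1, TEF4 and YEF3 in both, EFB1 in haploid and EFT2 in diploid-labelled cells. With only the groups compared in the fit 3 were called at 5 h and 1 from 2 to 5 h in each kind of cell, and in haploid cells the latter was 2 without library 1 of 2 h or library 2 of 5 h. The difference between the kinds of cell in the change to 2 h was called by limma for 0 of 9 members, with 2 at an unadjusted p under 0.05, where 0.712% of all rows were called. Ribosomal proteins were lower in 124 of 137 rows at 2 h in haploid cells (median -4.46), and 61 rose from 2 to 5 h. The 9 members with YEL034C-A were at 3.61 to 3.67% of reading frame TPM before, 1.49 to 1.55% at 2 h and 2.03 to 2.17% at 5 h.

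**Figure D4:**
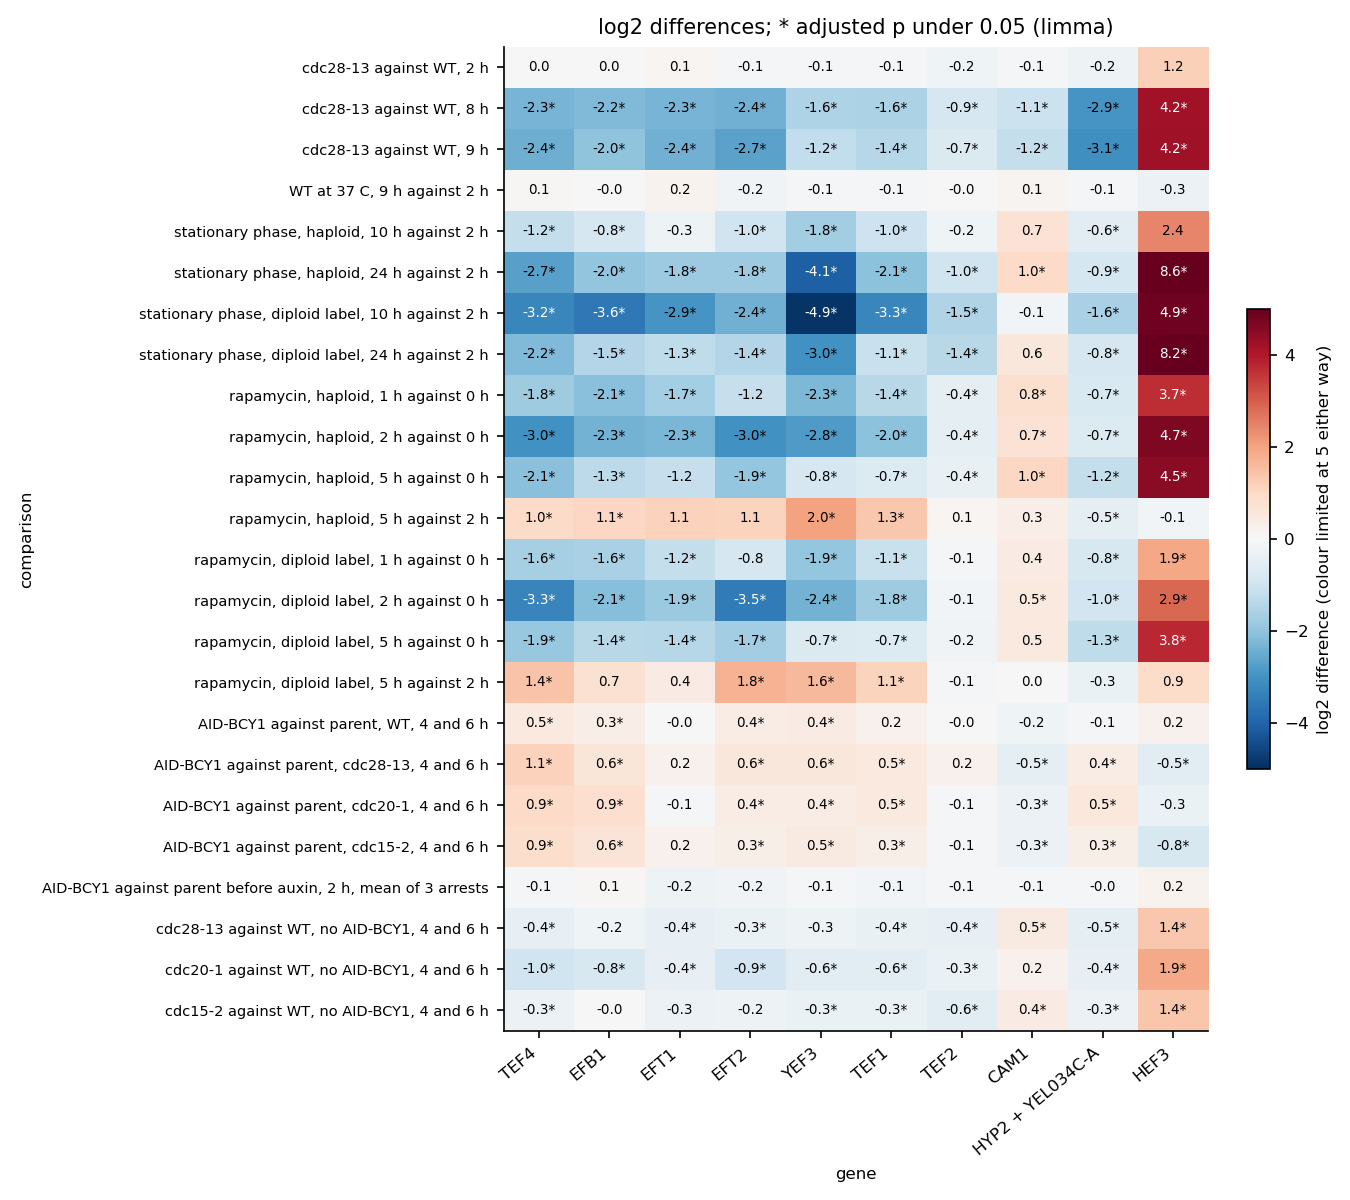
Log2 differences (colour, limited at 5 in size) of TEF4, EFB1, EFT1, EFT2, YEF3, TEF1, TEF2, CAM1, HYP2 with YEL034C-A and HEF3 (columns) in the tested comparisons (rows), where a star marks a limma adjusted p under 0.05. In the stationary phase and rapamycin rows that start from growing cells the YEF3 column is lower and the HEF3 column higher, while CAM1 is lower with *cdc28-13* at 8 and 9 h and is called lower in none of those rows.

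In the Bcy1 experiment, TEF4 was higher with AID-BCY1 after auxin in all 4 backgrounds. CAM1 was called lower in the 3 arrests as scaled here, but not with each library centred on its median. TEF4 was at 843 and 986 TPM at 4 h and 495 and 456 at 6 h in *cdc28-13*, and at 1845 and 1806 and at 1138 and 1172 in *cdc28-13* AID-BCY1. In *cdc20-1* it was at 474, 394, 404 and 474 over both times, and at 910.4, 912, 637 and 925 with AID-BCY1. In *cdc15-2* it was at 872, 816, 569 and 649, and at 1261, 1445, 1159 and 1381 with AID-BCY1. No AID-BCY1 library overlapped its parent's. In *WT* TEF4 was at 832, 969, 828 and 897, and at 1284, 1270.4, 1338 and 1119.6 with AID-BCY1, which also did not overlap. The share of all rows without overlap was not computed in this experiment.

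TEF4 was higher by 1.14 ± 0.10 in *cdc28-13* (n = 4 against 4, limma adjusted p = 9.4e-10), 0.94 in *cdc20-1* (3.1e-08), 0.87 in *cdc15-2* (8.2e-08) and 0.51 in *WT* (0.00047). The 4 libraries of a strain are 2 library series, each sampled at 4 and 6 h. Both times of a series may come from the same culture, so these p-values may overstate the replication. The comparisons in *cdc20-1* and *cdc15-2* cross mating type, as given above, so the degron and the mating type cannot be told apart there. In *WT* and *cdc28-13* the libraries of parent and AID-BCY1 had the same mating type by their genes. LEU2, KanMX and osTIR came with the degron in each background, so these cannot be told apart either. Before auxin, at 2 h, TEF4 was at 1183 and 1013 in *cdc28-13* and at 1111 and 1149 in its AID-BCY1 strain. It was at 701 and 662 in *cdc20-1* and at 582 and 520 in its AID-BCY1 strain, and at 1050 and 984 in *cdc15-2* and 1030 and 1095 with AID-BCY1. At 2 h the 9 members with YEL034C-A made up 2.12% of reading frame TPM in both *cdc20-1* libraries, and 1.28 and 2.02% with AID-BCY1. On average over the 3 arrests limma called 0 of 9 members at 2 h, with 1 at an unadjusted p under 0.05, where 1.48% of all rows were called. This average can hide a difference in 1 background. Within the 2 library series, which are numbers in the titles, TEF4 was higher by 1.16 and 1.12 in *cdc28-13*, 0.80 and 1.09 in *cdc20-1*, 0.78 and 0.96 in *cdc15-2* and 0.66 and 0.36 in *WT*.

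CAM1 was at 567, 492, 500.4 and 525 TPM over 4 and 6 h in *cdc28-13* and at 426, 388, 334 and 359 with AID-BCY1. It was lower by 0.47 ± 0.11 (limma adjusted p = 0.00076), by 0.31 in *cdc20-1* (0.022) and in *cdc15-2* (0.02), and differed by -0.21 in *WT* (0.15). As scaled here, the 2 gamma subunit genes again moved in opposite directions in the arrests, with no overlap between strain and parent (share of all rows not computed). With each library centred on its median the differences of CAM1 in the 3 arrests were -0.28, -0.17 and -0.08, and none was called (limma adjusted p = 0.052, 0.26 and 0.57).

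**Figure D5:**
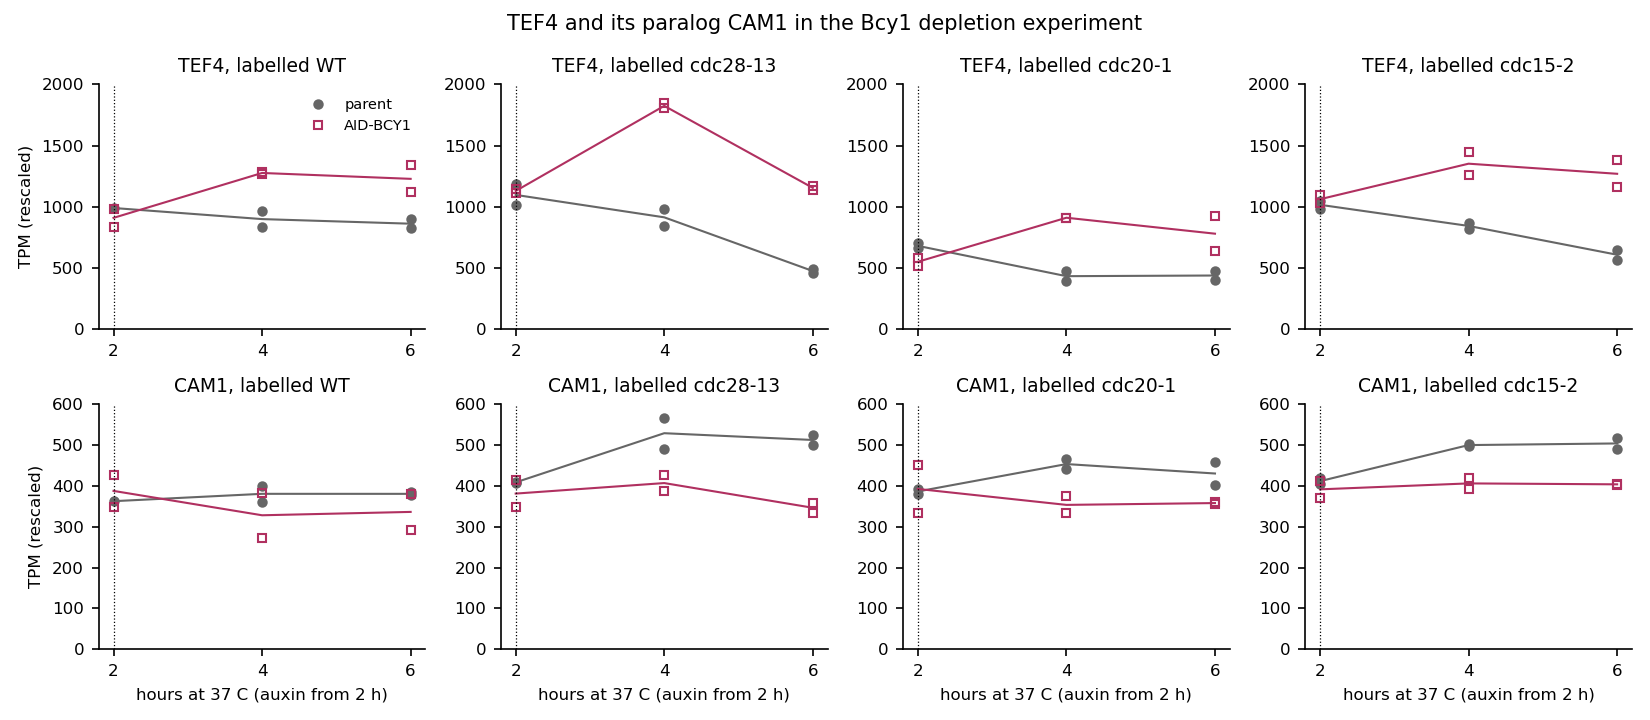
TPM (y axis) of TEF4 and CAM1 against hours at 37 °C (x axis) in *WT*, *cdc28-13*, *cdc20-1* and *cdc15-2*, with each library as a point, parents as circles and AID-BCY1 strains as squares, and a dotted line at the addition of auxin at 2 h. TEF4 squares lie above the circles at 4 and 6 h in each background, 1138 to 1845 against 456 to 986 in *cdc28-13*, and CAM1 squares lie below in the 3 arrests.

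Of the other members EFB1, EFT2 and YEF3 were also called higher in all 4 backgrounds. With AID-BCY1 4 of 9 members were called higher in *WT* (9.37% of all rows), and 6 of 9 higher and CAM1 lower in *cdc28-13* (9.47% higher and 25% lower), in *cdc20-1* (12.1% and 22.3%) and in *cdc15-2* (11.6% and 27.4%). EFB1 was higher by 0.34 in *WT*, 0.60 in *cdc28-13*, 0.85 in *cdc20-1* and 0.63 in *cdc15-2*, and YEF3 by 0.40, 0.57, 0.36 and 0.46 (limma adjusted p at most 0.026). TEF2 and EFT1 were called in none of the 4, with differences between -0.08 and 0.23. TEF1 with TEF2 and EFT1 with EFT2 as sums were called in *cdc28-13* only (0.34 and 0.44), so the calls of TEF1 and EFT2 in the other backgrounds rest on the split of shared reads. HEF3 was lower by 0.52 in *cdc28-13* (0.0094) and 0.80 in *cdc15-2* (0.00011), and differed by 0.22 in *WT* (0.32) and -0.34 in *cdc20-1* (0.088). On the deposited scale, where ribosomal RNA is part of the total, 1 member was called in *WT*, 4 in *cdc20-1* and 3 in *cdc15-2*. In *WT* 2 members were called without the *WT* library 1 of 4 h, *WT* library 1 of 6 h or AID-BCY1 library 1 of 6 h. In *cdc15-2* 3 or 4 were called without any of 5 libraries, the *cdc15-2* libraries 1 and 2 of 4 h and 1 of 6 h and the AID-BCY1 libraries 2 of 4 and 6 h.

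The effect of AID-BCY1 differed from that in *WT* for few members. That on TEF4 was larger in *cdc28-13* by 0.63 ± 0.15 (limma adjusted p = 0.0098, 1 of 9 members called where 5.37% of all rows were). In *cdc20-1* those on EFB1 and HYP2 were larger by 0.51 ± 0.16 (0.04) and 0.58 ± 0.16 (0.025), with 8.82% of all rows called. In *cdc15-2* limma called 0 of 9, with 2 at an unadjusted p under 0.05 (9.86% of all rows). The call of TEF4 was lost on the deposited scale, and both calls in *cdc20-1* were lost after centring. Ribosomal protein rows were higher with AID-BCY1 in 10 of 137 in *WT*, 124 in *cdc28-13*, 126 in *cdc20-1* and 129 in *cdc15-2*. Of the 8 mitochondrial translation factors 6, 6, 4 and 7 were lower, beside 15, 25, 22.3 and 27.4% of all rows.

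In the same experiment the arrests without AID-BCY1 were compared with *WT* at 4 and 6 h, with the *WT* libraries shared among the 3 contrasts and with those above. In *cdc20-1* 8 of 9 members were lower (18.7% of all rows), TEF4 by 1.01 ± 0.10 (limma adjusted p = 3.4e-09), EFT2 by 0.94 (1.2e-08) and EFB1 by 0.79 (9.6e-07). EFT1 with EFT2 fell by 0.71 and TEF1 with TEF2 by 0.43. In *cdc28-13* 6 were lower and CAM1 higher (19.6% and 30.3%), and in *cdc15-2* 5 were lower and CAM1 higher (9.93% and 29.2%). CAM1 was above *WT* by 0.45 (0.00086) and 0.40 (0.0034) in those and by 0.21 (0.089) in *cdc20-1*. HEF3 rose by 1.37 in *cdc28-13* (4e-08), 1.91 in *cdc20-1* (4.2e-11) and 1.37 in *cdc15-2* (7.2e-08). *WT* libraries had the other mating type than *cdc28-13* and *cdc15-2* by their genes, which cannot be told apart from those arrests here. In *cdc15-2* 2 members were called without the *cdc15-2* library 1 of 6 h or the *WT* library 2 of 4 h, and 3 without the *cdc15-2* library 2 of 4 h.

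Experiments with 1 library a group gave values with no replicate check. In *cdc20-1* against *WT* TEF4 was at 558, 376, 354 and 308 TPM at 2, 4, 6 and 9 h beside 1129, 1086, 1146 and 1138. YEF3 was at 1037, 819.8, 862 and 773 beside 1975, 2030.2, 1927 and 2163. CAM1 was at 414, 449.9, 446 and 459 beside 340.2, 364, 377 and 359. TEF4 and YEF3 were thus lower at each time and CAM1 a little higher. Members at least 2-fold lower numbered 1, 6, 5 and 6 of 9 (3.73, 5.5, 4.75 and 6.48% of all rows). The HYP2 row, which could not be read alone in this experiment, is counted at 4 and 9 h. After centring the counts past 2-fold in either direction were 4, 7, 8 and 8, and on the deposited scale 3, 6, 7 and 7. No share of all rows was computed for these counts. HEF3 was higher by 1.23 to 2.52 at these times. The *cdc20-1* libraries were MATalpha by label and genes and those of *WT* MATa.

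In *cdc15-2* against *WT* the differences were smaller at the earlier times. TEF4 was at 961, 755, 562, 489 and 445 TPM at 2, 4, 6, 8 and 9 h, and between 1035 and 1078 in *WT*. YEF3 was at 1886, 1319, 1039, 954 and 837, and between 1957 and 2199 in *WT*. CAM1 was above its *WT* range of 348 to 368 in each library, at 386, 471, 524, 519 and 526. Members at least 2-fold lower numbered 0, 1, 2, 4 and 7 of 9 (2.12, 1.96, 2.97, 5.67 and 6.27% of all rows). The HYP2 row, which could not be read alone in this experiment, is counted from 4 h on. It was the only member counted at 4 h, and YEF3 was the other at 6 h. At 6 h the number past 2-fold in either direction was 5 on the deposited scale and 7 after centring, and at 8 h it was 7 with all reading frames in the total or on the deposited scale and 8 after centring. The matching shares of all rows were not computed.

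With alpha factor TEF4 was at 1198 TPM at 0 h and then at 806, 829, 684, 783 and 605 at 2, 4, 6, 8 and 9 h, against 1178 to 1445 with DMSO. YEF3 was at 1859 and then at 1293, 1196, 1258, 1416 and 1354, against 1902 to 2659. TEF2 stayed within 0.20 of DMSO on the log2 scale at each time, and CAM1 was above it by 0.54 to 0.62 from 4 h on. As scaled here TEF4, at 6 and 9 h, was the 1 member at least 2-fold lower (1 of 9 at those times and 0 at the others, beside 0.92, 6.41, 6.98, 8.67, 15.7 and 5.1% of all rows). On the deposited scale 1, 3, 1, 2 and 2 members were past 2-fold in either direction from 2 to 9 h, and after centring 1, 1, 1, 0 and 4. For these scalings the share of all rows was not computed. In the prototroph against the auxotroph, both *cdc28-13*, 0 of 9 members were 2-fold lower at 2, 4, 6 or 8 h (2.29, 3.9, 8.4 and 11.7%). TEF4 was at 1013, 652, 371 and 321 TPM over time in the auxotroph and at 1102, 773, 458 and 388 in the prototroph. CAM1 was at 283, 347, 374 and 363 and at 321, 436, 495 and 440.0. TEF4 was thus lower at 8 h than at 2 h in both strains, and CAM1 was not. YEF3 and TEF2 were not lower at 8 h in the auxotroph, unlike in the first *cdc28-13* experiment. YEF3 was at 1145 TPM at 2 h and 1156 at 8 h there, and at 1022 and 771 in the prototroph. TEF2 was at 6819 and 7958 in the auxotroph and at 7145 and 6688 in the prototroph. EFB1, EFT1, EFT2 and the HYP2 row were lower at 8 h than at 2 h in both strains. From 4 h on YEF3 was the member that differed most between them, with differences at the 4 times of -0.16, -0.34, -0.74 and -0.58.

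Across the 97 groups of the 8 experiments, each experiment centred on its own mean, 7 of the 9 genes ran close together. The Pearson correlation of each member with the mean of the other 8 was 0.906 for TEF1, 0.867 for EFB1, 0.856 for EFT1, 0.830 for TEF4, 0.822 for YEF3, 0.779 for TEF2 and 0.760 for EFT2. It was -0.271 for CAM1, and 0.323 for the HYP2 row or 0.826 for HYP2 with YEL034C-A. Among 6315 rows the 10 others with the highest correlation with the mean of the members were SSB2 (0.893), PAB1 (0.892), LIA1 (0.884), GRS1 (0.874), CDC33 (0.871), MIS1 (0.870), CDC60 (0.866), SSB1 (0.865), TIF34 (0.858) and NOP1 (0.858). SSB1 and SSB2 code for chaperones of the nascent chain, PAB1 for the poly(A)-binding protein, CDC33 for the cap-binding initiation factor, TIF34 for an initiation factor subunit, and GRS1 and CDC60 for aminoacyl-tRNA synthetases. These values describe groups that share strains, controls and library depth, and carry no test.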

How the data were processed

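RNA sequencing of 159 libraries (97 groups of 1 to 3) was analysed. Per the submitters' processing notes the authors used STAR 2.5.3a, RSEM 1.3.0 and sacCer3 and deposited log2 of TPM plus 1 per row. No read counts were used, so depth is unknown. Values were transformed back, rescaled to a total of 1e+06 over 6678 nuclear reading frames outside the ribosomal DNA (7 frames inside it left out) and taken as log2 with a pseudocount of 1. Rows with a mean of at least 1 in an experiment entered limma 3.58.1 in R 4.3.3 (lmFit, eBayes with trend) over all its groups, with Benjamini-Hochberg adjustment and a threshold of 0.05. Library series was a covariate in the Bcy1 experiment, where same-numbered libraries deviated together (416 of 506 pairs correlated over 0.1). Groups came from the labels. The rule for members uses names only, but members and lists were chosen with earlier results of these data known. The text names all 9 members, HEF3, ANB1, at most 2 members of each list with the largest called change, and the 10 rows nearest the members' mean. Scripts were tested on simulated data with known changes. Of 100 changes of size 1.5, 38 were recovered in *cdc28-13* at 9 h and 92 with AID-BCY1 in *cdc28-13*. In haploid cells 11 were recovered in stationary phase at 24 h and 22 with rapamycin at 5 h. False calls made up 4.82 to 8.22% of the rows called. A row that was not called may thus still have changed. Tables and figures were made in Python 3.11.15 with pandas 2.3.3, numpy 2.4.6, scipy 1.17.1 and matplotlib 3.10.9. Of paralog ratios, 120 exact two-sided permutation tests gave a smallest Benjamini-Hochberg adjusted p of 0.156. Alternatives covered scaling, pseudocount, filter, groups in the fit, left-out libraries, replicate block, culture as a random effect, summed paralogs and, chosen after seeing the data, HYP2 summed with YEL034C-A.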

Additional observations from a re-analysis of the deposited data

Results flagged for a closer look

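For 4 results the change differed between groups by a limma test of the difference itself. The decrease of YEF3 from 2 to 24 h of growth was smaller in diploid-labelled than in haploid cells by 1.071 on the log2 scale (adjusted p = 0.013 by limma). YEF3 stood at 437 and 498 TPM in the 2 diploid-labelled libraries of 24 h and at 225 and 205 in the 2 haploid ones. At 10 h the order was the reverse, with YEF3 at 130.0 and 122 in diploid-labelled and at 1096 and 1073 in haploid libraries. The increase of TEF4 with AID-BCY1 was larger in *cdc28-13* than in *WT* by 0.633 (adjusted p = 0.0098 by limma). All 4 AID-BCY1 libraries lay above all 4 of the parent in both backgrounds (share of all rows not computed). The increases of EFB1 and HYP2 with AID-BCY1 were larger in *cdc20-1* than in *WT* by 0.5134 and 0.5753 (adjusted p = 0.04 and 0.025 by limma), where the *cdc20-1* comparison also crosses mating type. With only the groups compared in the fit the calls of YEF3, EFB1 and HYP2 were lost, the 2 in *cdc20-1* were also lost after centring and without some single libraries, and those of TEF4 and EFB1 were lost on the deposited scale.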

How the results depend on the processing

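Counts are of members called, with the value as reported in brackets. Shares of all rows were computed only for the values as reported, and those past 2-fold only in the lower direction. With only the groups compared in the fit, stationary phase gave 3 (5) in haploid cells at 10 h, 4 (8) at 24 h and 0 (1) for the difference between the kinds of cell; rapamycin gave 3 (7) at 5 h and 1 (4) from 2 to 5 h in haploid and 3 (6) and 1 (4) in diploid-labelled cells; AID-BCY1 in *cdc20-1* gave 4 (7), and its difference from *WT* 0 (2). On the deposited scale AID-BCY1 gave 1 (4) in *WT*, 4 (7) in *cdc20-1* and 3 (7) in *cdc15-2*, *cdc15-2* against *WT* 3 (6), and the differences from *WT* 0 (1) in *cdc28-13* and 1 (2) in *cdc20-1*, which was 0 after centring and 1 both without the replicate block and with culture as a random effect. The latter gave 4 (7) for AID-BCY1 in *cdc15-2*. The causes were not tested.

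Members past 2-fold, where 1 library stood in each group, were in *cdc20-1* 3 deposited and 4 centred (1) at 2 h and 8 centred (5) at 6 h; in *cdc15-2* 5 deposited and 7 centred (2) at 6 h, and 7 with all reading frames in the total, 7 deposited and 8 centred (4) at 8 h; with alpha factor 1 and 1 (0) at 2 h, 3 and 1 (0) at 4 h, 2 deposited (0) at 8 h and 2 and 4 (1) at 9 h, deposited and centred; and in *cdc28-13* 5 with all reading frames, 5 deposited and 4 centred (2, the HYP2 row of them higher) at 4 h and 8, 8 (3) at 6 h.

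Signs turned for HYP2 when summed with YEL034C-A in stationary phase at 24 h (-0.88 haploid, -0.83 diploid-labelled) and with rapamycin in diploid-labelled cells at 2 h (-0.96) and 5 h (-1.28), against its row, and for CAM1 centred there at 2 h (-0.17).

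Leaving out 1 library at a time gave 0 to 0, 8 to 8 and 8 to 8 in *cdc28-13* at 2, 8 and 9 h and 0 to 0 in *WT* over time; 3 to 4 and 7 to 8 in haploid and 7 to 7 and 6 to 7 in diploid-labelled stationary cells, and 1 to 1 for their difference; with rapamycin 6 to 7, 7 to 8, 6 to 7 and 2 to 3 in haploid, 4 to 4, 6 to 7, 4 to 6 and 3 to 4 in diploid-labelled cells (1, 2 and 5 h, and 5 against 2 h), and 0 to 1 for their difference. AID-BCY1 gave 2 to 5 in *WT*, 6 to 7 in *cdc28-13*, 5 to 7 in *cdc20-1*, 3 to 6 in *cdc15-2* and 0 to 2 before auxin, the arrests 6 to 8, 7 to 8 and 2 to 6, and the differences from *WT* 1 to 2, 0 to 3 and 0 to 0. The haploid count at 10 h was 3 without library 2 of 2 h or library 1 of 10 h, that from 2 to 5 h of rapamycin 2 without library 1 of 2 h or library 2 of 5 h, and that before auxin 2 (TEF1, EFT1) without the *cdc20-1* AID-BCY1 library 1.

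The replicate number as a block in the *cdc28-13*, stationary phase and rapamycin experiments, where no same-numbered pair correlated over 0.1 (highest 0.0577, 0.0479 and 0.0676), gave 8 and 8 in *cdc28-13* at 8 and 9 h, 5, 8, 7 and 7 in stationary phase, and 7, 8 and 7 (haploid) and 5, 6 and 7 (diploid-labelled) with rapamycin; no count moved by over 1.5 times.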
